A study of Homo sapiens with 79 samples.

Results

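The levels of 9 Wnt pathway genes were followed across retinal organoid differentiation. Those listed as secreted antagonists were WIF1, SFRP1, SFRP2, FRZB, DKK1 and DKK3, and those listed as modulators were DACT2, WNT2B and LGR5. The 9 symbols were chosen by a list drawn up with measured values of these same libraries known, so their levels are given as a description and no test of them is reported. All 9 were found among the 24414 genes of the count table. Read counts had been made from single cells of retinal organoids grown from a human embryonic stem cell line (CRX-GFP, a derivative of the H9 line that carries GFP at the photoreceptor gene CRX). The organoids were dissociated on day 60, day 90 or day 200 of differentiation, and cells of 10 to 17 µm were captured on Fluidigm C1 chips. All groups shared the same line and the same culture, with fetal calf serum, triiodothyronine, taurine and retinoic acid added from day 18. There was 1 chip at day 60 (578 cells), 1 at day 90 (661 cells) and 2 at day 200, called chip a (356 cells) and chip b (381 cells), or 1976 cells in all. GEO lists each column of a chip as a sample, 79 in total, and these columns share 40 cell barcodes. Whether all columns of a chip were loaded from the same cell suspension is not stated, so they are not taken as biological replicates. Each column holds different cells, so its level also depends on which cells it caught. How many organoids were pooled for a chip is not given in the sources used here. The line is 1 clone in culture, and the organoids lack the vessels and immune cells of an eye.

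Wnt proteins are secreted ligands that bind Frizzled receptors and LRP co-receptors on a cell and stabilize beta-catenin, which then acts with TCF/LEF factors on target genes. In the developing eye the pathway is known for its part in specifying the pigment epithelium and the ciliary margin, the rim of the optic cup, while the central neural retina forms where signaling is held low. Secreted antagonists act outside the cell, either by binding the ligand (WIF1 and the SFRP family, which includes FRZB) or by binding the co-receptor (DKK1).

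Total reads per column ran from 3414268 to 7999822, and the median per cell from 160343 at day 90 to 251929 on chip a. Reads carried no molecular identifiers, so every Poisson or binomial 95% interval given here covers counting error only. At a common depth of 50000 reads a cell held a median of 1667 genes on chip a against 2778 on chip b. The table lists 2273 to 8457 genes at 0 on a chip and almost none (0 to 14) with reads in 1 to 4 of its cells, so a rarely read gene can be listed at 0 and a 0 sets no limit. Because a chip level is a sum over cells, fewer cells of a type and less RNA per cell cannot be told apart in it.

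WIF1, the Wnt inhibitory factor that binds Wnt ligands directly, had the widest range of the 9 genes. Its level in CPM (reads of the gene per 1000000 reads of all genes, summed over the cells of a chip) was 1.15 at day 60 (95% Poisson interval 0.96 to 1.38), 44.2 at day 90 (43.01 to 45.44), 366 on day 200 chip a (362 to 370) and 293 on chip b (289 to 296). Thus the order was day 60, day 90, then both day 200 chips, and chip a and chip b differed by 0.32 in log2(CPM + 1). Across the 19 columns of day 60 the lowest value was 0, the median 0 and the highest 11.6 CPM. Day 90 columns ran from 3.29 to 125 CPM with a median of 36.8. On chip a the columns ran from 65.3 to 857 (median 318), and on chip b from 38.9 to 676 (median 284). Every day 200 column therefore lay above every day 60 column, whereas 18 of the 20 day 90 columns did. With each cell thinned to 50000 reads, a WIF1 read was held by 1.21% of cells at day 60 (7 cells), 18.0% at day 90, 49.7% for chip a and 51.7% for chip b. At full depth, which was greatest on chip a, the shares were 1.38%, 24.1%, 62.9% and 60.1%, so the 2 chips of day 200 changed places.

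FRZB (also known as SFRP3), a soluble protein with a Frizzled-like ligand-binding domain, also had its lowest level at day 60 and its highest at day 200. It was at 21.0 CPM at day 60, 116 at day 90 and, at day 200, 270 (chip a) and 265 (chip b). The columns ran from 0 to 102 (median 15.7) at day 60, from 30.4 to 239.9 (median 108) at day 90, from 78.7 to 549 (median 250) on chip a, and from 42.2 to 472 (median 216) on chip b. Hence the column ranges of neighboring time points overlapped, and the 2 chips of day 200 differed by 0.02 in log2(CPM + 1).

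DKK3, a divergent Dickkopf protein known from Müller glia, was read in more cells than any other of the 9. Its level was 333 CPM at day 60, 649 at day 90 and, at day 200, 848 (chip a) and 741 (chip b). The columns ran from 214 to 462 (median 324) at day 60 and from 425 to 941 (median 633) at day 90, and 19 of the 20 day 90 columns lay above all of day 60. Chip a spanned 444 to 1388 (median 847) and chip b 445 to 1139 (median 736). The share of cells with a read at 50000 reads was 70.6% at day 60, 75.6% at day 90, 61.5% for chip a and 71.9% for chip b. At full depth these shares were 76.99%, 85.6%, 78.4% and 81.4%. At equal depth chip a thus had the smallest share of cells with a read although its level was the highest.

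SFRP2, a ligand-binding antagonist of retinal progenitors, had the reverse order between the first 2 time points. It was at 462 CPM at day 60, 183 at day 90 and, at day 200, 366 (chip a) and 307 (chip b). Columns ran from 89.7 to 761 (median 436) at day 60, from 45.5 to 423 (median 170) at day 90, from 0.54 to 687 (median 318) on chip a, and from 17.3 to 486 (median 337) on chip b. Day 60 was highest and day 90 lowest, with overlapping columns throughout.

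SFRP1, a close relative of SFRP2 (chr8:41261962-41309473, GRCh38, minus strand), peaked at day 90. The chip levels were 44.7 CPM at day 60, 303 at day 90 and, at day 200, 95.2 (chip a) and 105 (chip b). The columns at day 60 ran from 0.18 to 123 (median 41.8) and at day 90 from 53.2 to 938 (median 286). On chip a they ran from 0 to 498 (median 26.3), with 45.4% of the reads in the top 1% of cells, and on chip b from 20.8 to 388 (median 79.6). The chip a median column was thus lower than that of day 60 although the chip level was higher.

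DACT2, an intracellular protein of the Dapper family that binds Dishevelled, was at 18.3 CPM at day 60, 32.2 at day 90 and, at day 200, 48.9 (chip a) and 46.2 (chip b). Its columns overlapped at all time points, with medians of 9.49, 34.1, 32.9 and 39.8 CPM in that order. WNT2B, the only ligand of the 9, was at 30.8 CPM at day 60, 49.4 at day 90 and, at day 200, 16.4 (chip a) and 68.1 (chip b). Here the 2 day 200 chips stood on either side of both earlier chips. On chip a 5 columns held no WNT2B read and 67.2% of the reads lay in the top 1% of cells.

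DKK1, which blocks the LRP co-receptors, and LGR5, a receptor for R-spondins, were near the lower limit of what the table holds. DKK1 levels were 6.03, 5.20, 4.68 and 8.81 CPM at day 60, day 90, chip a and chip b. LGR5 levels were 4.24, 5.37, 4.67 and 6.01 CPM. At full depth both were read in 5 cells of chip a (1.40%), with 99.6% of the DKK1 reads and 98.4% of the LGR5 reads in the top 1% of cells. Across the chips DKK1 was read in 5 to 24 cells and LGR5 in 5 to 23. Levels of these genes therefore rest on a few cells, and no order between the time points is read from them.

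**Figure D1:**
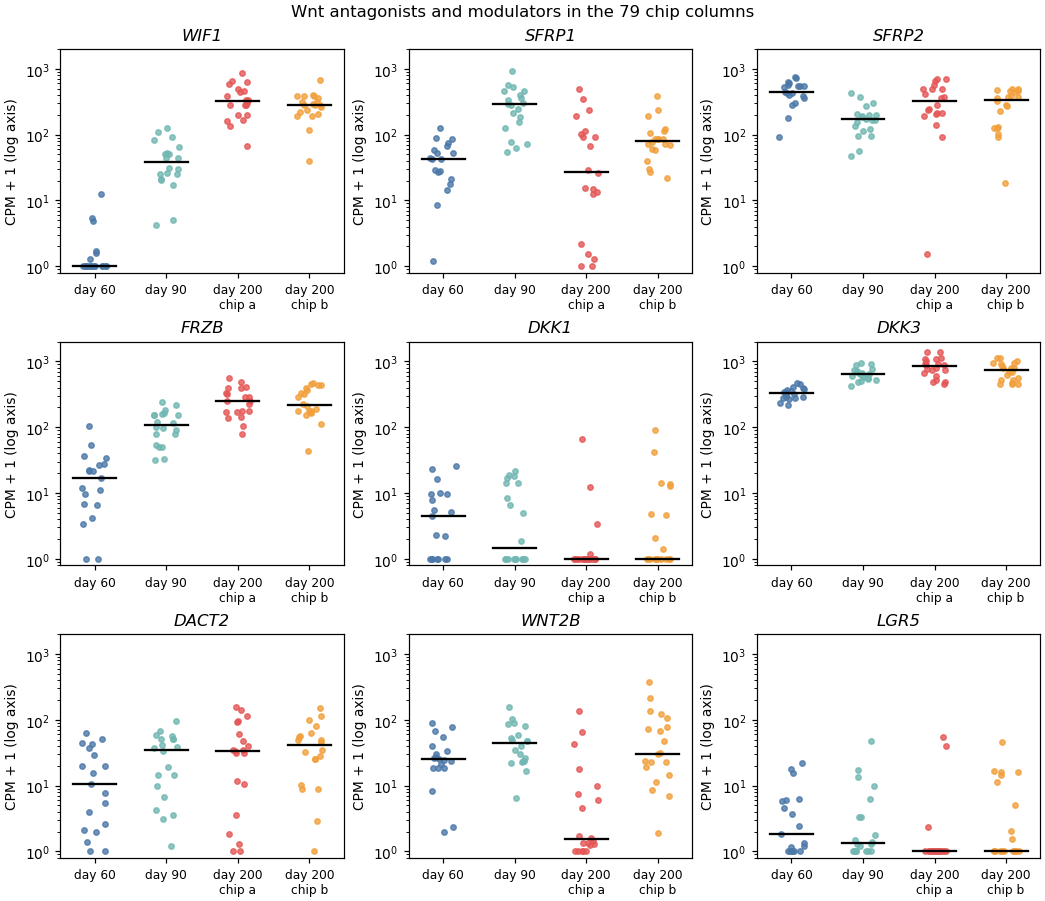
CPM + 1 (log axis) of the 9 genes in each of the 79 chip columns, by chip, with a bar at the median of the columns. WIF1 columns run from 0 to 11.6 CPM at day 60 and from 38.9 to 857 CPM at day 200, SFRP1 is highest at day 90, and many columns of DKK1 and LGR5 sit at 0.

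A fold rule was applied to the 12365 genes with a mean of at least 5 CPM over the 4 chips, and all 9 genes entered it. A gene passed with a difference of at least 1 in log2(CPM + 1), and for day 200 both chips had to show it. Since the genes were chosen with these levels known, the counts are set beside the share of all genes that passed and nothing is read from them. Between day 60 and day 90, 3 of the 9 passed as higher (WIF1 by 4.39, SFRP1 by 2.73 and FRZB by 2.405 in log2), against 10.5% of all genes. Of the 9, 1 passed as lower (SFRP2, at -1.33), against 6.88% of all genes. DKK3 lay just outside the rule, with 0.96. Between day 90 and day 200, WIF1 (2.86) and FRZB (1.20) passed as higher, against 2.6% of all genes, and SFRP1 (-1.59) as lower, against 1.75%. Between day 60 and day 200, 5 passed as higher, against 7.7% of all genes: WIF1 (7.25), FRZB (3.61), DACT2 (1.33), DKK3 (1.25) and SFRP1 (1.14). None passed as lower, against 3.23%. The median difference over the 9 genes was 1.14, and over all genes tested 0.07. These 3 comparisons share chips. Between the 2 chips of day 200 none of the 9 was higher on chip a (5.25% of all genes) and 1, WNT2B at -1.99, was lower (7.62%). For WNT2B the chip decided the direction against day 60: the difference was -0.87 with chip a and 1.12 with chip b.

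The rest of the pathway was taken from lists of 82 further genes, of which 67 were in the table and 43 passed the filter on low values. Over these 43 the median difference between day 60 and day 200 was 0.15. Of the 43, 7 passed as higher and 3 as lower at day 200, against 7.7% and 3.23% of all genes. At day 90 against day 60, 7 passed as higher and 2 as lower, against 10.5% and 6.88%. Nothing is read from the counts of the single lists. Among ligands 3 of the 18 listed were tested. WNT5B, a ligand known for beta-catenin-independent signaling, passed as higher (4.86 CPM at day 60 to 17.4 and 11.2 at day 200). WNT4 (21.0 to 2.33 and 5.46) and WNT5A (35.7 to 11.2 and 14.2) passed as lower. Of 15 receptors 11 were tested, and none passed at day 200 in either direction. FZD7, a Frizzled receptor, passed at day 90 against day 60 (16.2 to 36.4 CPM). Of 10 secretion factors and signal enhancers 4 were tested and 1 passed, as higher. This was NDP (norrin, a non-Wnt ligand of FZD4), at 14.1 CPM at day 60, 35.1 at day 90 and, at day 200, 87.4 (chip a) and 83.0 (chip b).

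Of 18 other antagonists 9 were tested, with 2 higher and 1 lower between day 60 and day 200. SFRP4, another secreted Frizzled-related protein, was at 10.5 CPM at day 60, 4.87 at day 90 and, at day 200, 77.1 (chip a) and 90.1 (chip b). SFRP5 was listed at 0 at day 60, so no fold is given, and was at 30.3 CPM at day 90 and 14.8 and 10.5 at day 200. DRAXIN, a secreted repellent that also antagonizes Wnt, was lower (37.9 CPM at day 60, 11.5 at day 90, 17.0 and 16.4 at day 200). KREMEN1, a receptor for Dickkopf proteins, passed only at day 90 (16.7 to 60.7 CPM). Of 13 intracellular components, all tested, 2 were higher at day 200. These were CTNNBIP1, which blocks the binding of beta-catenin to TCF (4.15 to 22.3 and 14.0 CPM), and the transcription factor TCF7 (7.46 to 18.2 and 22.3 CPM). Of 8 feedback targets 3 were tested. NKD1, a feedback inhibitor, passed as higher (3.16 to 7.70 and 7.79 CPM), and AXIN2, a general readout of beta-catenin signaling, did not (8.78 CPM at day 60, 14.0 at day 90, 4.92 and 9.57 at day 200).

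**Figure D2:**
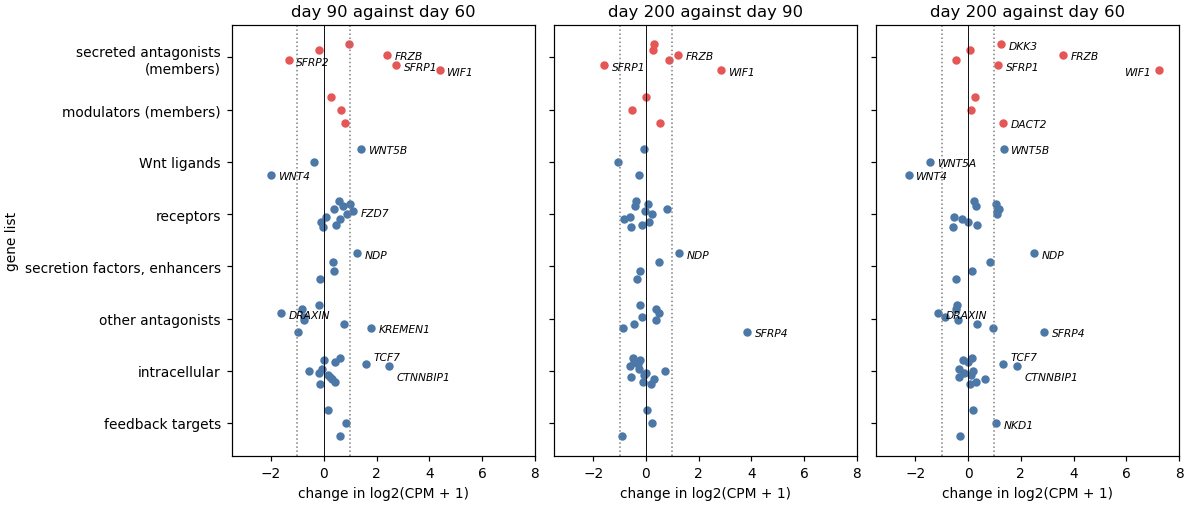
Difference in log2(CPM + 1) of the 9 genes (red) and of the tested genes of 6 pathway lists that no chip lists at 0 (blue), in 3 comparisons of time points, with day 200 as the mean of its 2 chips. Named points passed the rule of 1 (dotted lines) on every chip compared. WIF1 lies at 4.39, 2.86 and 7.25, and most pathway genes lie between the dotted lines.

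The genes lie at separate loci, except that WIF1 and LGR5 are on the same chromosome. In GENCODE release 44 (GRCh38) all 9 are protein coding, with WIF1 at chr12:65050626-65121305 on the minus strand, LGR5 at chr12:71439798-71586310 (plus), FRZB at chr2:182833275-182866637 (minus), SFRP2 at chr4:153780591-153789083 (minus), DKK1 at chr10:52314281-52318042 (plus), DKK3 at chr11:11956207-12009769 (minus), DACT2 at chr6:168292830-168319777 (minus) and WNT2B at chr1:112466541-112530165 (plus). Windows of 250 bases upstream of annotated starts were read from the RefSeq promoter table (GRCh38.p14) for 6 of the 9 genes, with 7 windows in all. They were searched on both strands for the TCF/LEF core letters CTTTGAA, the form CTTTGAT, the form CTTTGTA and the form CTTTGTT. At least 1 of these was found in 12.0% of the 35116 windows of all genes. Of the 7 windows 2 held a match: DKK1 held 2, starting 95 and 76 bases before its start, and DACT2 held 1. The windows of 3 genes are shown 5′ to 3′ on the strand of the gene, with any match in capitals. WIF1 (chr12:65121306-65121555) and FRZB (chr2:182866638-182866887) are the 2 genes that passed as higher in all 3 comparisons of time points. DKK1 (chr10:52314031-52314280) is the gene with 2 matches.
WIF1: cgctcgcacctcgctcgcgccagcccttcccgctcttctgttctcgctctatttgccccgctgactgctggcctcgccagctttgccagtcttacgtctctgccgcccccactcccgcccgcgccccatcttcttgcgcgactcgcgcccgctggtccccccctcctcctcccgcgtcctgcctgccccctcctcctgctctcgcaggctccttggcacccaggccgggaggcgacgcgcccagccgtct
FRZB: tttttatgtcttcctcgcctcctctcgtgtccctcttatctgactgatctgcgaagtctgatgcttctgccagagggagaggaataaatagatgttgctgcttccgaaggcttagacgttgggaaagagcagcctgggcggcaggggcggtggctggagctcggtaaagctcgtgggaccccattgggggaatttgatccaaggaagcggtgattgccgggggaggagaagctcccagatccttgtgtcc
DKK1: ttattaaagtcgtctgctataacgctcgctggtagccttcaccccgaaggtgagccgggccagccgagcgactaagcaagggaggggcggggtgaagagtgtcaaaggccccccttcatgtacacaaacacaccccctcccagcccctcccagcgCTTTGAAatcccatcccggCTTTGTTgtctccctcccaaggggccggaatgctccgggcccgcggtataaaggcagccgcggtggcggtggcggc
The WIF1 window held 71.6% G or C and 27 CG dinucleotides, the FRZB window 55.6% and 11, and the DKK1 window 62.8% and 18, where the median window of all genes held 58% and 11. Neither the WIF1 nor the FRZB window contained the letters searched for, which says nothing of sites outside these windows.

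To place the genes in cell types, all cells were clustered without the 9 genes and the other pathway genes among the variable genes, which gave 14 clusters. Names were given only from marker lists. These were the study's lists for its own clusters, with the 9 genes left out. The study drew them from these same cells, so the markers met give a name no independent support. It named its clusters from 10 markers each. Of these, 7 were left in the Müller glia list, and 9 each in the RPE list and the list with PAMR1 and POSTN. Where any of the 9 genes was itself such a marker, its high level in the cluster of that name is no new location. The cells clustered are the same that give the levels, so the levels by cluster are also a description. Müller glia-like was the name of 2 clusters, cluster 0 (418 cells) with 6 of 7 markers, and cluster 6 (103 cells) with 4 of 7, led by IGFBP6 and ABCB1. Müller glia are the support cells of the retina and arise last from its progenitors. The data limit this name at day 60. In cluster 0 the glial gene RLBP1 was at 0.69 CPM at day 60, 113 at day 90 and, at day 200, 566 (chip a) and 259 (chip b), and AQP4 was listed at 0 at day 60. The 17 progenitor markers summed to 5829 CPM at day 60, 5375 at day 90 and, at day 200, 5449 (chip a) and 6011 (chip b). HES1, which is also in the Müller glia list, gave 3048, 2348, 2838 and 3192 CPM of these sums, and the other 16 markers gave 2781, 3027, 2611 and 2819. The 5 mature glial markers summed to 277, 549.5, 1442 and 836 CPM in the same order. The cluster thus carried progenitor genes on every chip, and its mature glial genes were lowest at day 60.

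WIF1 was highest in the Müller glia-like clusters. Among clusters with at least 5 cells on a chip, clusters 0 and 6 held the 2 highest levels on each of the 4 chips. On chip b the mitotic-like cluster (359 CPM, 7 cells) and cluster 11 (339 CPM, 27 cells, led by KCNIP4 and WT1, no cell type name) came next, and on chip a these were at 256 (9 cells) and 262 (6 cells). The retinal ganglion cell (RGC)-like cluster was at 0.07 to 2.92 CPM on the 4 chips. At 50000 reads 47.2% of cluster 0 cells (exact 95% interval 42.4 to 52.2) and 2.70% of RGC-like cells (0.74 to 6.78) held a read, with median depths of 168566 and 160724 reads before thinning. Within cluster 0 the level was 2.17 CPM at day 60 (130 cells), 112 at day 90 (119 cells), 959 on chip a (96 cells) and 716 on chip b (73 cells). Within cluster 6 it was 22.5 CPM at day 60, all from 1 of 14 cells, then 242, 486 and 435. The step of WIF1 over time was therefore seen inside the Müller glia-like clusters, and the RLBP1 levels of cluster 0 followed the same order. The day 60 part of these clusters depends on the integration of cells across time points. It held 144 cells with integration and 3 without, so the step is not one within a class found at day 60 alone. The increase was also present outside these clusters. Of 10 clusters with at least 5 cells on the chip of day 60 and on both of day 200, WIF1 was higher on both day 200 chips in 9, and the exception was the ECM-like cluster (extracellular matrix genes), with 1.33 CPM at day 60, 44.7 at day 90 and, at day 200, 0.59 (chip a) and 4.25 (chip b). In cluster 1 (300 cells led by GDF15 and ANGPTL4, no cell type name) it was listed at 0 at day 60 and stood at 17.6 CPM at day 90 and at 208 (chip a) and 240.5 (chip b) at day 200. Cluster 3 (225 cells led by VSX1, LHX4 and NEUROD4) met 5 of 10 markers of the rod list but had no GNAT1 or NRL among its 10 leading genes, so it is given no cell type name. WIF1 was there at 0.17, 11.9, 171 and 112 CPM. In the cone-like cluster it was listed at 0 at day 60 and stood at 36.1 CPM at day 90, with 72.95 (chip a) and 14.0 (chip b) at day 200. Whether WIF1 RNA from other cells of the suspension entered these values was not tested. In log2 the Müller glia-like cells exceeded the other cells of their chip by 2.45 ± 0.28 (SD, n = 4 chips), with a positive difference on each chip. The value of day 60 (2.32) rests on 121 WIF1 reads, 95.9% of them in the top 1% of cells. The 4 chips are of different days and are not replicates, which also holds for the SDs given below.

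SFRP2 and DKK3 were also high in the Müller glia-like clusters but did not share the time course of WIF1, and SFRP2 was higher still in cluster 9. SFRP2 was at 834 CPM in cluster 0, 651 in cluster 6, 921 in cluster 9 and 373 in the mitotic-like cluster. In cluster 0 it was at 1235 CPM at day 60, 434 at day 90 and, at day 200, 894 (chip a) and 663 (chip b), so the low level at day 90 was present within the cluster. Its excess in Müller glia-like cells was 2.24 ± 0.34 in log2 (SD, n = 4 chips). DKK3 was at 1584 CPM in cluster 0 and 1165 in cluster 6, against 558 in mitotic-like and 141 in cone-like cells. Cluster 13, with 6 cells of day 90 led by the muscle genes MYL1 and TNNC2, was at 1711 CPM, below cluster 0 on that chip. In cluster 0 DKK3 was at 709 CPM at day 60, then 2068, 1960 and 1585, a step between day 60 and day 90 with no later increase. Its excess was 2.00 ± 0.44 (SD, n = 4 chips). DACT2 had a larger and more variable excess of 2.71 ± 1.07 (SD, n = 4 chips), with 108 CPM in cluster 0 and 79.5 in cluster 6.

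DKK1 reads of day 200 lay mainly in cluster 6. The level there over all chips was 51.9 CPM, against 3.82 in cluster 0 and 14.6 in RGC-like cells. Cluster 6 held 96.9% of the DKK1 reads of chip a and 93.4% of those of chip b, but 37.0% at day 90 and 7.27% at day 60. At day 60 the RGC-like cells held 54.8%. A single cell gave 88.1% of the DKK1 reads of cluster 6 for chip a and 54.5% for chip b.

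**Figure D3:**
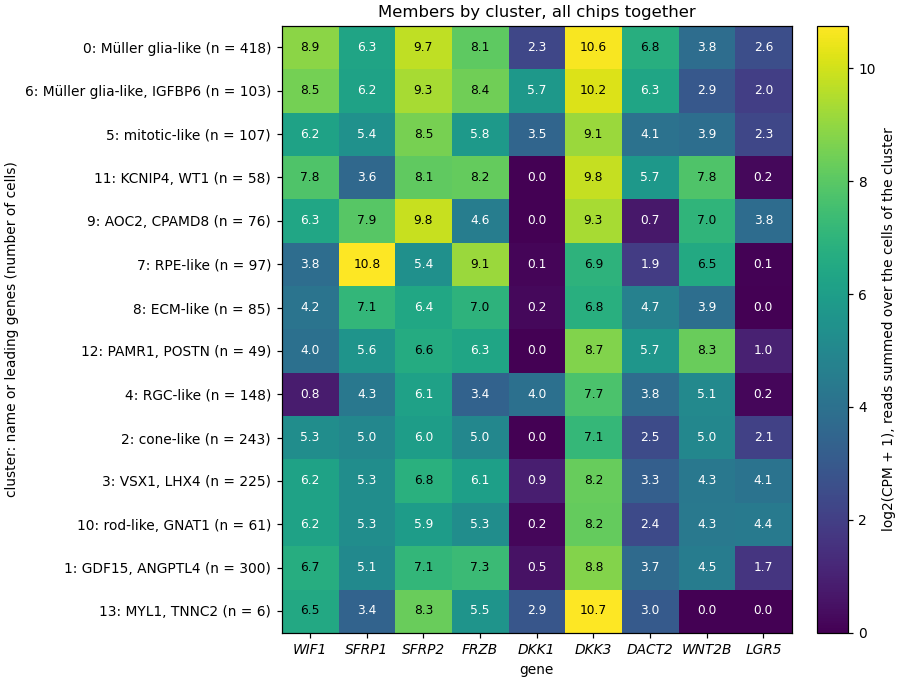
log2(CPM + 1) of the 9 genes in 14 clusters, with reads summed over the cells of all chips (number of cells in parentheses). Colors are to be read down a column, since counts are not divided by gene length. WIF1, SFRP2, DKK3 and DACT2 are high in clusters 0 and 6, and SFRP2 also in cluster 9. SFRP1 and FRZB are high in the RPE-like cluster 7, and WNT2B in clusters 12 and 11.

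SFRP1 was highest in the retinal pigment epithelium (RPE)-like cluster at day 90 and on both chips of day 200. At day 60, with 4 such cells, the highest level was in the ECM-like cluster (290.4 CPM). These 97 cells carried 9 of 9 RPE markers, and 78 of them came from day 90. SFRP1 was at 1729 CPM there, with reads in 87.6% of cells at 50000 reads, against 246 CPM in cluster 9, 140 in the ECM-like cluster and 76.8 in cluster 0. In the RPE-like cells it was at 1689 CPM at day 90, 1840 on chip a (9 cells) and 2929 on chip b (6 cells). Although they made up few of the cells, the RPE-like cells held 81.1% of the SFRP1 reads of day 90, 47.02% of those of chip a and 36.3% of those of chip b. Without them the SFRP1 level was 43.4 CPM at day 60, 66.9 at day 90 and, at day 200, 51.7 (chip a) and 67.7 (chip b). The differences then became 0.61 between day 60 and day 90, -0.17 between day 90 and day 200, and 0.44 between day 60 and day 200, none of which passed the fold rule. Outside the RPE-like cells day 90 was no longer the highest of the 4 chips.

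FRZB was found in both locations and in other clusters. It was at 559 CPM in the RPE-like cells, 338 in cluster 6, 298 in cluster 11 and 268 in cluster 0, against 9.53 in RGC-like cells. At day 90 the RPE-like cells held 68.9% of the FRZB reads, whereas on chip a they held 7.34% and on chip b 2.60%, where cluster 0 held 48.4% and 29.4%. In cluster 0 FRZB was at 22.9 CPM at day 60, 64.7 at day 90 and, at day 200, 502 (chip a) and 426 (chip b). Without the RPE-like cells FRZB was at 20.9 CPM at day 60, 42.1 at day 90 and, at day 200, 256 (chip a) and 262 (chip b). Its difference between day 60 and day 90 was then 0.97, just under the rule, and that between day 90 and day 200 was 2.59. DKK3 was then just past the rule between day 60 and day 90 (1.14). WIF1 kept its order without these cells (1.16, 50.2, 374 and 296 CPM).

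**Figure D4:**
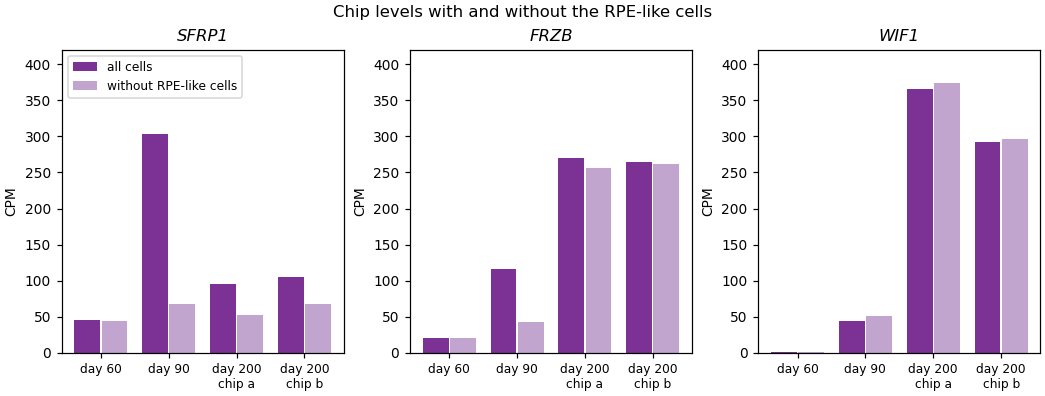
Levels in CPM of SFRP1, FRZB and WIF1 on the 4 chips from all cells (dark bars) and after leaving out the RPE-like cells (light bars). SFRP1 at day 90 is 303 with these cells and 66.9 without them, FRZB at day 90 is 116 and 42.1, and WIF1 changes little.

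WNT2B lay elsewhere. Over all chips it was at 316 CPM in cluster 12, 222 in cluster 11, 131 in cluster 9 and 92.4 in RPE-like cells, against 13.3 in cluster 0 and 6.70 in cluster 6. Cluster 12 (49 cells) is led by GFAP and TTC6 and carries all 9 markers of the list with PAMR1 and POSTN. GFAP there was at 13.1 CPM at day 60, 1285 at day 90 and 1527 on chip b. In this cluster WNT2B was at 202 CPM at day 60 (22 cells), 491 at day 90 (7 cells) and 383 on chip b (19 cells), and chip a had 1 such cell. Cluster 11 held 6 cells on chip a, with no WNT2B read, and 27 on chip b, with 319 CPM. Cluster 9 was higher than both on chip b (412 CPM, 14 cells). On chip b cluster 11 held 33.0% and cluster 12 held 23.8% of the WNT2B reads. The chip difference of WNT2B thus went together with the number and the levels of these cells, whose part in it was not tested.

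Cluster 9 (76 cells) is led by AOC2 and CPAMD8 and carried 4 of 12 markers of the ciliary margin (WFDC1, COL9A1, GJA1 and GAS1). The RPE-like cluster also carried 4 of the 12 (BMP4, BMP7, GJA1 and MITF), and the 12 summed to 2483 CPM there at day 90, more than in cluster 9. SFRP2 in cluster 9 was at 1214 CPM at day 60, 967 at day 90 and, at day 200, 504 (chip a) and 744 (chip b). It exceeded clusters 0 and 6 at day 90 and on chip b, and was below both at day 60 and on chip a. The 12 margin markers summed to 587 CPM in cluster 9 at day 60, 1531 at day 90 and, at day 200, 2974 (chip a) and 1916 (chip b). SFRP1 was at 34.4, 225, 554 and 344 CPM in the same order. The first SFRP1 value rests on 20 cells and the later ones on 33, 9 and 14.

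The location of LGR5 differed between the chips. Over all chips it was at 16.3 CPM in cluster 3 and 19.7 in the rod-like cluster (led by CCKBR and GNAT1). It was at 12.9 CPM in cluster 9, 4.98 in cluster 0 and 3.91 in the mitotic-like cells. In the rod-like cluster all 259 reads came from 1 cell of chip a. In cluster 3, 1 cell gave 71.5% of the reads at day 90 and 65.4% on chip b, and no read was found on chip a.

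**Figure D5:**
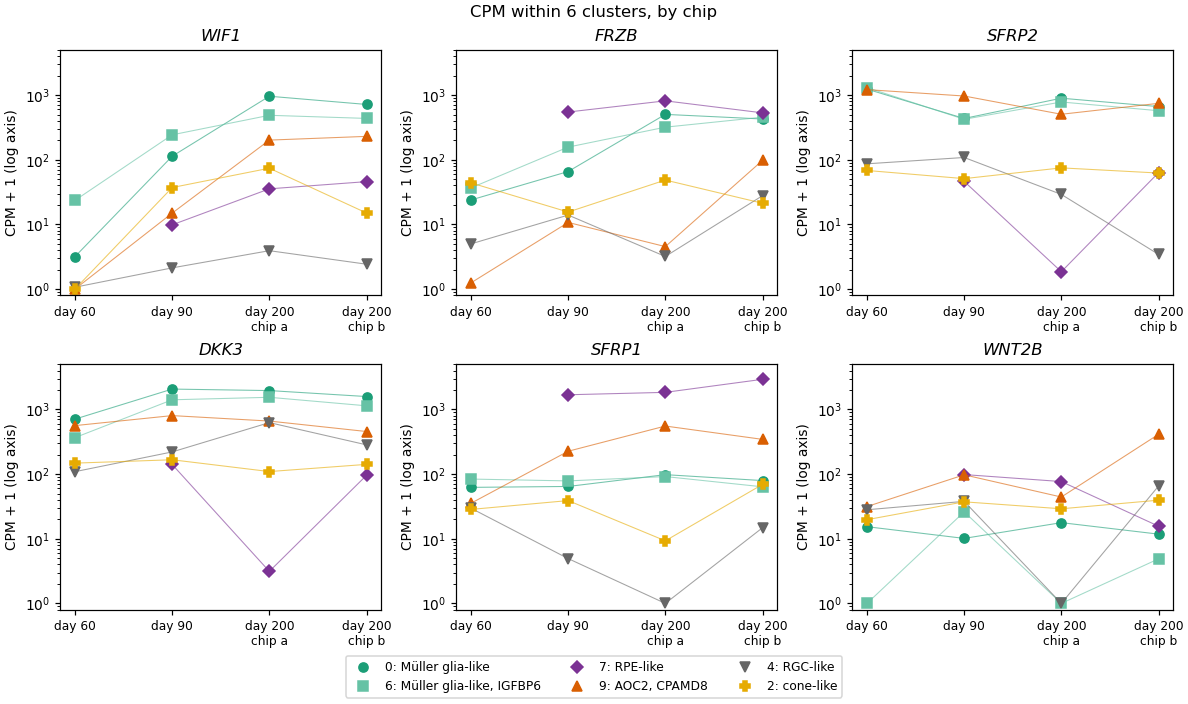
CPM + 1 (log axis) of 6 genes within 6 clusters on each chip, for clusters with at least 5 cells on the chip. Lines join the values of a cluster. WIF1 in cluster 0 goes from 2.17 to 112, 959 and 716 CPM, FRZB there from 22.9 to 64.7, 502 and 426, while SFRP2 in cluster 0 is highest at day 60 (1235 CPM) and SFRP1 in the RPE-like cluster stays between 1689 and 2929 CPM.

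Single cells often held several of the genes listed as secreted antagonists. At 50000 reads WIF1, SFRP2, DKK3 and FRZB were all read in 1 of 578 cells at day 60, 26 of 655 at day 90 (3.97%), 67 of 356 on chip a (18.8%) and 75 of 381 on chip b (19.7%). None of the 4 was read in 16.6%, 13.0%, 19.9% and 16.0% of cells. Of the cells with a WIF1 read, 63.3% for chip a and 62.9% for chip b also held SFRP2, against 27.9% and 22.8% of those without WIF1. For DKK3 these shares were 78.5% and 91.4%, against 44.7% and 51.1%, and for FRZB 57.6% and 57.4%, against 27.4% and 26.6%. SFRP1 was read with FRZB in 62.4% of FRZB cells at day 90, against 25.3% of the other cells of that chip.

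The genes most like each member over the 1976 cells were sought among 12631 genes read in at least 5% of cells, by Pearson correlation of log-normalized values centered within each chip. These values describe cells that share library and depth, and carry no test. WIF1 was most like SPP1 (r = 0.43), DKK3 (0.43) and CLU (0.42). On the single chips its correlation with DKK3 was 0.08 at day 60, 0.35 at day 90 and, at day 200, 0.57 (chip a) and 0.55 (chip b). DKK3 itself was most like SPP1 (0.58), CLU (0.53) and VIM (0.50), and SFRP2 was most like DKK3 (0.45), HES1 (0.43) and IFITM3 (0.41). Of these, SPP1, CLU, VIM, HES1 and IFITM3 belong to the Müller glia list, which the study drew from these same cells. SFRP1 was most like TYRP1 (0.57), PMEL (0.54) and COL8A1 (0.51), all of the RPE list that the study also drew from these cells. By chip its correlation with TYRP1 was 0.18 at day 60, 0.70 at day 90 and, at day 200, 0.39 (chip a) and 0.45 (chip b). FRZB was most like RLBP1 (0.40), NPFFR1 (0.36) and COL8A1 (0.35), and these values were largest at day 90. In the order day 60, day 90, chip a and chip b, the correlation was -0.00086, 0.53, 0.36 and 0.37 with RLBP1, 0.05, 0.60, 0.26 and 0.15 with NPFFR1, and 0.15, 0.65, 0.19 and 0.08 with COL8A1. RLBP1 is a retinoid-binding protein of both Müller glia and RPE, and it was at 902 CPM in the RPE-like cells of day 90. For DACT2, WNT2B, DKK1 and LGR5 no correlation exceeded 0.23, and with so sparse counts none is reported as a result.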

How the data were processed

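The authors deposited 1 table of counts of reads per gene in each cell. Reads had been trimmed with Trimmomatic 0.33, aligned with STAR 2.4.0 to GRCh38.p7 and counted with HTSeq 0.6. Cells had been filtered on reads, genes, mitochondrial and spike-in shares, with a lower read limit at day 60. Day 90 had a higher spike-in dose, and more spike-in reads were allowed per cell there. Its shallowest cell held 7549 gene reads. No strand setting was stated. Cells were tied to chips through the deposited Sample_name values and the labels. Here reads were summed per chip and divided by all gene reads (CPM), without the GFP-Spike row. Shares of cells were taken after thinning to 50000 reads, without 6 shallower cells of day 90, unless given as at full depth. Clusters came from Seurat 5.3.0 in R 4.3.3 (LogNormalize, 2411 variable genes, CCA integration over time points, 20 dimensions, resolution 0.6). A cluster took a name from at least 3 markers at 2 times the level of the other cells (with 5 CPM added) and read in 20% of its cells, and cluster 3 was left unnamed for its leading genes. Scanpy 1.11.5 called 25 doublets (22 on chip a), which were kept. Members and lists were chosen with earlier results of these data known. The scripts were tested on simulated counts. All 9 members were named, with up to 3 genes per list and direction past the fold rule and the 3 genes most like each member. Without replicate chips at day 60 and day 90 and with members chosen on these levels, no p-value was computed. Alternatives covered library size (edgeR 4.0.16 factors), pseudocount, filters, doublets, left-out chips and clustering.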

Additional observations from a re-analysis of the deposited data

Results flagged for a closer look

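The table holds a row for a GFP spike sequence that enters no comparison above. It had no read at day 60 or day 90, 15976 reads on chip a (163 cells, 45.8%) and 3515 on chip b (95 cells, 24.9%), which is 0.017% and 0.0039% of the gene reads.

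SFRP1 moved in opposite directions between day 60 and day 200 in different clusters, on both chips. In log2(CPM + 1) the difference in the RGC-like cluster was -4.89 with chip a, where SFRP1 is listed at 0 so that the pseudocount of 1 sets the value, and -1.004 with chip b. In the ECM-like cluster it was -7.06 and -3.21, and in the AOC2 and CPAMD8 cluster 3.97 and 3.28. The difference between the clusters was not tested, and on chip a these clusters held 9, 6 and 9 cells.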

How the results depend on the processing

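Of 88 counts of members past the fold rule under the alternatives, 86 stayed within 1.5 times their main value. The exceptions concerned members lower at day 200 than at day 90 (main count 1). Leaving out either chip of day 200 gave 1 to 2, where WNT2B also passed with chip a alone (difference -1.54). Without the RPE-like cells, an alternative chosen after seeing the data, the count was 0. Of 396 differences of single members none that passed the rule changed sign, and 61 moved by more than the spread between the 2 chips of day 200. For the excess in Müller glia-like cells, WNT2B went from -1.85 to 0.18 in log2 when every cell took the marker list it expressed most on average (1009 cells against 521), and the cause was not tested. Clustering without integration put 3 cells of day 60 in the class, so no ratio was computed. The shares of cells moved outside their exact intervals in 64 of 108 cases, under other depths or a minimum of 5 reads. Day, chip, spike-in dose and cell filter cannot be told apart. No paired analysis was possible because the chips share no replicate and no test was made.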
